A study of Homo sapiens with 8 samples.

Results

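The HepG2 strong, K562 weak G4 peaks are the high-confidence HepG2 intervals that were also detected in K562, but in too few K562 replicates to enter the K562 high-confidence list. They were selected on the deposited interval lists alone, as HepG2 intervals found in at least 6 of 9 replicates that share at least 1 bp with a K562 interval found in at least 2 of 8 replicates and with none found in at least 5 of 8. This rule gave 1159 of the 8776 HepG2 high-confidence intervals outside the mitochondrial chromosome (13.2%, 95% Wilson interval 12.5 to 13.9). Another 4730 (53.9%) were shared with the K562 high-confidence list, and 2887 (32.9%) had no K562 interval of either list and are called HepG2 only. The mirrored class, strong in K562 and weak in HepG2, held 2255 of 9205 K562 high-confidence intervals (24.5%, 23.6 to 25.4).

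G4 ChIP-seq was performed in HepG2, which derives from a hepatocellular carcinoma, and in K562, which derives from a chronic myelogenous leukemia, with no treatment listed. Chromatin was crosslinked with formaldehyde and sonicated, and DNA recovered with a G4 antibody was sequenced beside input. The series lists 3 G4 libraries, called technical replicates, and 1 input library per line, while the lists merge 8 K562 and 9 HepG2 replicates from 3 experiments per line. The paper describes 2 to 3 technical replicates for each experiment. An interval found in 2 of 8 replicates can therefore come from 1 experiment. Each list gives only chromosome, start and end on hg19, so peak heights, sequencing depth and the spread between replicates are unknown. At a peak called weak in K562, fewer cells carrying a folded G4, fewer folded G4s per cell and poorer detection cannot be told apart. The K562 lower-confidence list is also the shorter one, with 19231 intervals outside the mitochondrial chromosome against 28367 in HepG2.

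A G4 is a 4-stranded DNA structure formed by stacked tetrads of guanines, and sequences with several closely spaced G-runs can fold into one. In chromatin, folded G4s are known from nucleosome-depleted promoters, and many of them lie beside binding sites of promoter factors. K562 cells are of an erythroid and myeloid leukemia lineage, whereas HepG2 cells keep many hepatocyte features, so that promoters in common use and promoters of lineage genes can both be followed between the lines.

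The sequences below show the G4 motifs of the peaks richest in them, which are the exception among these peaks. A motif is 4 runs of at least 3 G separated by loops of 1 to 7 bases, read here on the strand that carries the guanines, and capitals mark the G-runs (hg19).
BAP1 motif at chr3:52444251-52444279, plus strand: GGGacgaggcGGGcgaaGGGaagaGGGGG
BAP1 motif at chr3:52444351-52444375, plus strand: GGGGaGGGGcggagcGGGcgaGGGG
BAP1 motif at chr3:52444383-52444412, plus strand: GGGGccGGGaagtgctGGGcgcaggtGGGG
MALT1 motif at chr18:56338527-56338549, plus strand: GGGaccgcGGGGGaGGGcgaGGG
MALT1 motif at chr18:56338591-56338616, minus strand: GGGGcGGGaccttGGGcctcgaGGGG
MALT1 motif at chr18:56338630-56338654, minus strand: GGGGcGGGGcacccGGGGGGcGGGG
MERTK motif at chr2:112656002-112656030, minus strand: GGGGGaggaGGGGcgtaaaGGGGaaaGGG
MERTK motif at chr2:112656038-112656055, minus strand: GGGGtGGGaGGGGGcGGG
MERTK motif at chr2:112656128-112656151, minus strand: GGGctggaaGGGGcGGGccGGGGG
ARHGEF17 motif at chr11:73018697-73018716, plus strand: GGGaggtGGGatGGGcGGGG
ARHGEF17 motif at chr11:73018773-73018790, plus strand: GGGcGGGcGGGGaGGGGG
ARHGEF17 motif at chr11:73018885-73018903, minus strand: GGGccGGGaaaGGGGtGGG

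Most of the peaks held no such motif. The next sequences give peaks at promoters of a ribosomal protein of the small subunit (RPS9) and of the ribosomal stalk (RPLP1), of the hepatocyte transcription factor CREB3L3 and of the stearoyl-CoA desaturase SCD. They were chosen to show whole peaks at genes described below. Capitals mark the stretch that also lay in the K562 lower-confidence list.
RPS9 peak at chr19:54704567-54704667, plus strand: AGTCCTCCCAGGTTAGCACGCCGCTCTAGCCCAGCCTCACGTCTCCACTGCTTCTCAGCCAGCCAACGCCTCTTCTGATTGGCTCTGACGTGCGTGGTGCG
RPLP1 peak at chr15:69745065-69745127, plus strand: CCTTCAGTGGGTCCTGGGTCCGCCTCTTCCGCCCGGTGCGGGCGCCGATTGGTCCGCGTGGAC
CREB3L3 peak at chr19:4153447-4153613, plus strand: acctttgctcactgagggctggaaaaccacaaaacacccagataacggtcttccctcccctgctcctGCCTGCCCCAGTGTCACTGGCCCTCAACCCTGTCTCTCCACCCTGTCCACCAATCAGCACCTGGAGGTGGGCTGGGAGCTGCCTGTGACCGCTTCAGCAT
SCD peak at chr10:102106749-102106841, plus strand: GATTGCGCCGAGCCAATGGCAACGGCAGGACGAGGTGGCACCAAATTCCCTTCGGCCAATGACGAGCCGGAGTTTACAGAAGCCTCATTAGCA

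Of these, the RPS9 and CREB3L3 peaks contained the letters CCAATCA, the string searched here for NFY, on one of the strands. The RPLP1 and SCD peaks lacked that exact string but held the shorter CCAAT on one of the strands. These 4 do not stand for the rest, since CCAATCA lay inside 121 of the 1159 peaks (10.4%). In RPS9, RPLP1 and SCD the K562 list covered the whole peak, and in CREB3L3 it covered 100 of 167 bp. None of these 4 peaks held a G4 motif.

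The peaks were narrow. Their median width was 130.0 bp (123 to 136, from 1 to 561), whereas shared peaks had a median of 206 bp (202 to 211) and HepG2-only peaks one of 135 bp (131 to 140.0). The HepG2 lower-confidence interval around a peak had a median width of 306 bp, and its K562 partner one of 186 bp. The 1159 peaks lay in 1117 HepG2 lower-confidence intervals, and 995 peaks (85.8%) were the only high-confidence peak of theirs. Pieces in the same interval were counted as separate peaks throughout. Widths and overlaps come from the lists that chose the peaks and are therefore described without a test.

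The K562 partner lay on top of the HepG2 peak in most cases. A median of 98.2% of a peak (quartiles 72.1 to 100.0) was covered by the K562 lower-confidence list, and 566 peaks (48.8%) lay wholly inside it. The centres of peak and partner were within 50 bp of each other for 818 peaks (70.6%), and 27 peaks had 2 partners. At the threshold of 1 bp, 48 peaks shared 10 bp or less with the K562 list, and 16 HepG2-only peaks just outside the rule had a K562 lower-confidence interval within 10 bp. On the other side, 16 of the 1159 peaks lay within 10 bp of a K562 high-confidence interval, and 52 shared peaks had 10 bp or less in common with one.

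A minority lay beside a peak that was strong in K562 or in both lines. The K562 partner of 97 peaks (8.37%) held a K562 high-confidence interval elsewhere along its length, and 79 peaks (6.82%) lay in a HepG2 lower-confidence interval together with a shared peak. Neither was true of 1042 peaks (89.9%), and 835 (72.0%) had no K562 high-confidence interval within 5 kb. The plot of list coverage shows the same from the centre outwards.

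**Figure D1:**
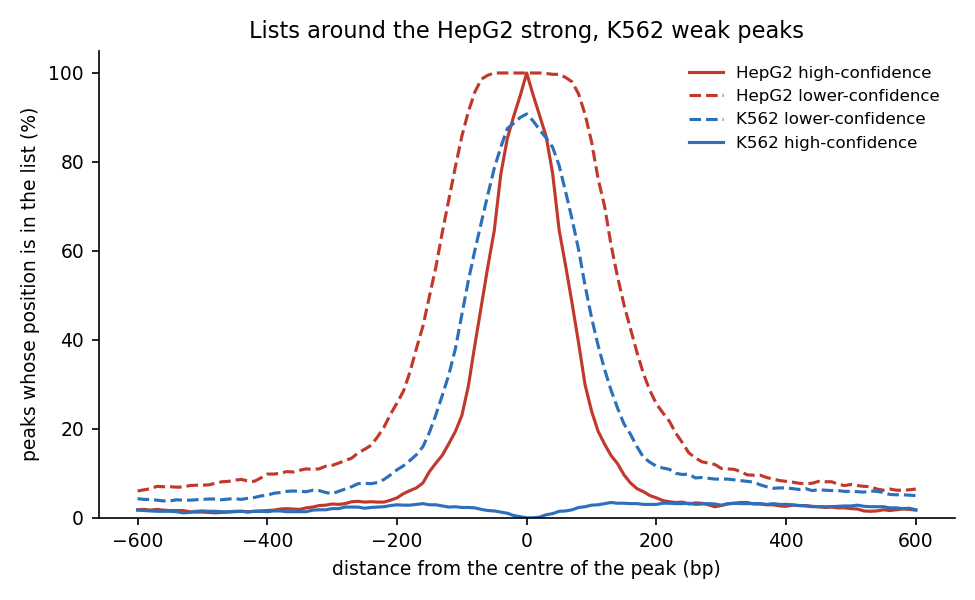
Share of the 1159 HepG2 strong, K562 weak peaks (%) whose position at a given distance from the peak centre (bp) lies in each of the 4 interval lists. The K562 lower-confidence list covers 90.8% of the centres, and the K562 high-confidence list, excluded at the peaks by the rule, covers at most 3.45% of the peaks at any distance shown.

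The peaks lay mainly at promoters, at a frequency between those of shared and HepG2-only peaks. The 1 kb before an annotated TSS, of coding and non-coding genes alike, counted as its promoter. Promoters were touched by 871 peaks (75.2%, 72.6 to 77.6), against 69.6% of all HepG2 high-confidence intervals. The share was 91.8% among shared peaks (odds ratio 0.27, 95% interval 0.23 to 0.32, two-sided Fisher's exact test, adjusted exact p = 3.13e-47) and 31.1% among HepG2-only peaks (odds ratio 6.71, 5.75 to 7.83, adjusted exact p = 1.72e-145). It was 83.1% in the mirrored K562 class, which was higher than among the 1159 peaks (odds ratio 0.61, 0.52 to 0.73, adjusted exact p = 1.27e-07). Peaks are not replicates, so these tests describe the lists and not the spread between cultures.

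A protein-coding TSS lay within 1 kb of 822 peak centres (70.9%), against 65.6% of all HepG2 high-confidence intervals, 88.5% of shared and 26.0% of HepG2-only peaks. Introns held 151 centres (13.0%), against 18.4% of all, 4.50% of shared and 43.4% of HepG2-only peaks. A further 96 centres (8.28%) were between genes, against 9.04% of all, 2.81% of shared and 19.5% of HepG2-only peaks. Each of these shares differed from those of both other HepG2 classes, with the largest adjusted exact p at 1.13e-14 for centres between genes against shared peaks. Against the mirrored K562 class the intron share was higher (13.0% against 8.34%, odds ratio 1.65, 1.31 to 2.07, adjusted exact p = 4.31e-05). The share between genes was also higher (8.28% against 5.90%, odds ratio 1.44, 1.10 to 1.89, adjusted exact p = 0.0126), but this call was lost when only intervals of at least 100 bp were kept (odds ratio 1.29, adjusted exact p = 0.172).

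**Figure D2:**
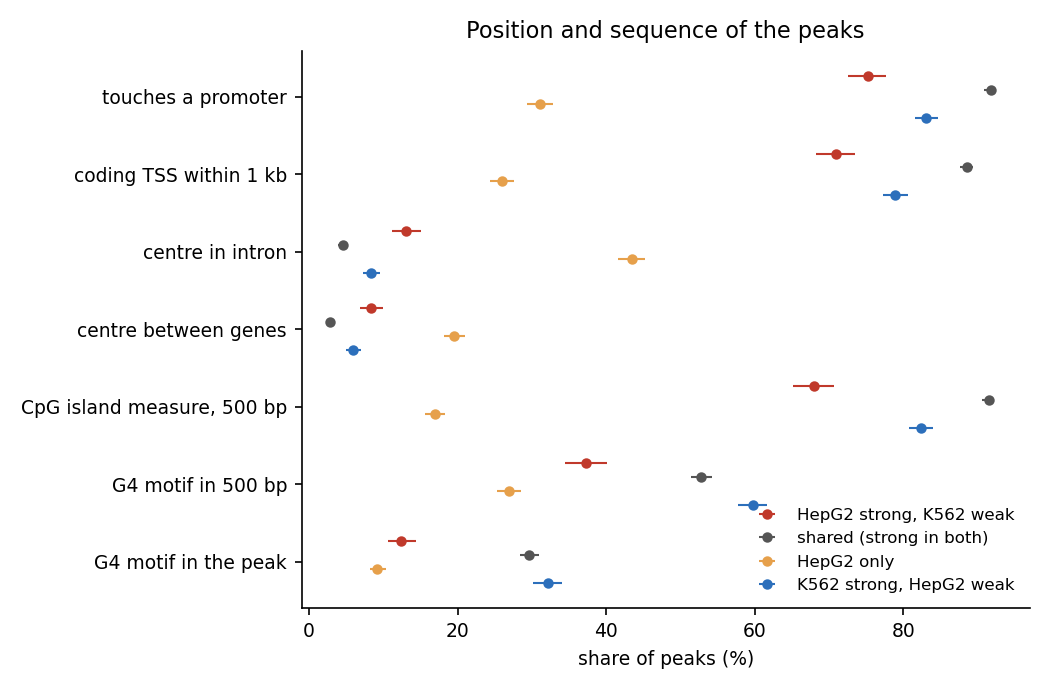
Share of peaks (%) with each position or sequence feature, with 95% Wilson intervals, in the HepG2 strong, K562 weak peaks (n = 1159), the shared peaks (n = 4730), the HepG2-only peaks (n = 2887) and the mirrored K562 class (n = 2255). The red points lie between the shared and the HepG2-only peaks for all 7 features, and below the mirrored class for the motif shares, with 12.4% against 32.1% within the peak.

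Around coding TSSs the peaks sat just upstream. The median position of the 822 centres within 1 kb was -52.0 bp (-58.0 to -45.0, negative values being upstream), and 617 of them (75.1%) were upstream. Shared peaks were centred farther out, at -76.0 bp (-79.0 to -73.0), and 83.8% of those centres were upstream. The mirrored class was centred at -45.0 bp (-48.0 to -40.0), with an interval that meets the one for the 1159 peaks.

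**Figure D3:**
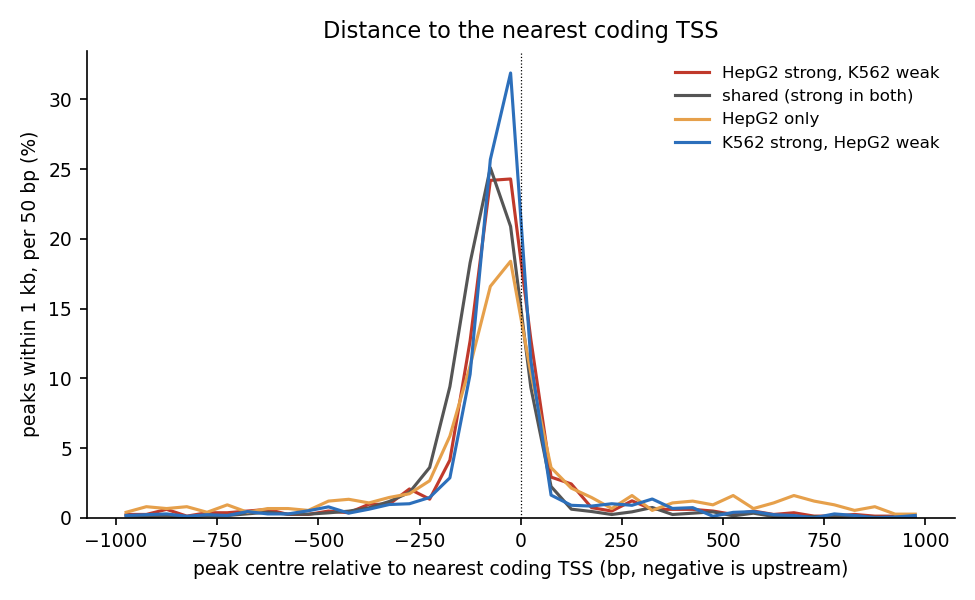
Distance of peak centres from the nearest protein-coding TSS (bp, negative upstream) in bins of 50 bp, as a share of the centres within 1 kb in each class (%). The HepG2 strong, K562 weak peaks hold 24.3% of their centres in the 50 bp just upstream of the TSS and 24.2% in the next 50 bp, while the shared peaks reach farther upstream.

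A complete G4 motif was rare within the peaks. It was present in 144 of 1159 (12.4%, 10.6 to 14.4), against 20.6% of all HepG2 high-confidence intervals, 29.6% of shared peaks (odds ratio 0.34, 0.28 to 0.41, adjusted exact p = 6.77e-36) and 32.1% of the mirrored K562 class (odds ratio 0.30, 0.25 to 0.36, adjusted exact p = 6.53e-38). The share was above the 9.21% of HepG2-only peaks (odds ratio 1.40, 1.13 to 1.73, adjusted exact p = 0.00388), but not once promoter and other peaks were compared separately (Mantel-Haenszel odds ratio 1.15, 0.91 to 1.44). Peak width moved with this share, since motifs were found in 5.07% of the peaks up to 100 bp and in 32.9% of those over 300 bp. The shared peaks were higher in each of these width classes, from 9.87% up to 100 bp to 47.6% over 300 bp. Looser patterns were met more often. With loops of up to 12 bases, 22.5% of the peaks had a motif, against 33.3% of all HepG2 high-confidence intervals and 46.3% of shared peaks. With runs of 2 G the shares were 72.6%, 79.6% and 91.4%, so most peaks did hold closely spaced G-runs.

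In windows of 500 bp around the centre, which take the peak width out, 432 peaks (37.3%) had a motif, against 42.2% of all HepG2 high-confidence intervals. The order of the classes stayed, with 52.8% of shared peaks (adjusted exact p = 8.04e-21), 26.9% of HepG2-only peaks (adjusted exact p = 3.14e-10) and 59.7% of the mirrored class (odds ratio 0.40, 0.35 to 0.46, adjusted exact p = 6.08e-35). For comparison, 40.3% of 78564 windows of the same length centred on all annotated coding TSSs held a motif. Genes with several annotated starts count more than once among these windows, and peaks far from a coding TSS have no counterpart there. By this window, the odds ratio of weak against shared peaks was 0.53 in HepG2 and 1.32 in K562 (ratio 0.401, 0.339 to 0.473).

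The 144 peaks with a motif held 173 motifs, and 24 of them held at least 2. Of the motifs, 113 (65.3%) lay wholly in the K562 lower-confidence interval, 25 partly and 35 outside it. In BAP1, a tumor suppressor deubiquitinase, 3 plus-strand motifs lay in a peak of 167 bp that the K562 list covered to 91.6%. MERTK, a receptor tyrosine kinase, had 3 minus-strand motifs in 372 bp, of which the K562 interval held 1. ETV4, an ETS factor, ARHGEF17, a guanine nucleotide exchange factor, and MALT1, a signalling protease of lymphocytes, also had 3 each, and GSE1 had 2 in an intron. Neither strand prevailed: of the 132 motifs within 1 kb of a coding TSS, 66 were on the coding and 66 on the template strand.

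The CpG content of the peaks lay between those of shared and HepG2-only peaks. The measure of a CpG island, at least 50% GC and an observed over expected CpG ratio of at least 0.6 in 500 bp, was met by 788 peaks (68.0%), against 63.8% of all HepG2 high-confidence intervals. Shared peaks met it in 91.5% of cases (odds ratio 0.20, 0.17 to 0.23, adjusted exact p = 6.01e-82), HepG2-only peaks in 16.9% (odds ratio 10.4, 8.90 to 12.2, adjusted exact p = 6.65e-210) and the mirrored class in 82.4% (odds ratio 0.45, 0.38 to 0.53, adjusted exact p = 1.95e-20). Median GC in the window was 61.4% (60.8 to 61.8), compared with 66.8% in shared, 56.4% in HepG2-only and 68.4% in mirrored peaks.

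Short letter strings of 16 transcription factors or factor families were then searched on both strands of the 500 bp windows. A match is a description of the sequence and not a bound site, and the strings can overlap one another and the G4 motifs, the GC box most of all. Each string is a single version of its element, so other versions were not counted. The promoter strings were GGGCGGG for the GC box of SP and KLF factors, CCAATCA for NFY, CCGGAAG for ETS factors, GCATGCGC for NRF1 and AAGATGG for YY1. Hepatocyte factors were represented by AAAGTCC for HNF4A, GTTAATNAT for HNF1, TGTTTAC for FOXA and TTGCNNAA for C/EBP, and further strings included TGANTCA for AP-1, AGATAAG for GATA factors, TGTGGTT for RUNX, ACATTCC for TEAD, ATCAAAG for TCF and LEF, CACGTG for the E-box and TGACGTCA for CREB and ATF.

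Among the promoter elements, NFY and the GC box parted. NFY letters were present around 171 peaks (14.8%), against 13.2% of all HepG2 high-confidence intervals, 6.69% of HepG2-only peaks (odds ratio 2.42, 1.94 to 3.01, adjusted exact p = 2.65e-14) and 5.94% of the mirrored K562 class (odds ratio 2.74, 2.16 to 3.48, adjusted exact p = 5.44e-16). Shared peaks held them in 16.8% of cases (odds ratio 0.86, 0.71 to 1.02, adjusted exact p = 0.107), and coding TSS windows in 8.05%. Of the 171 windows, 147 had a coding TSS within 1 kb, and in 121 the letters lay inside the peak itself.

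The GC box was present around 599 peaks (51.7%), against 56.5% of all HepG2 high-confidence intervals, 45.3% of coding TSS windows, 77.3% of shared peaks (odds ratio 0.31, 0.28 to 0.36, adjusted exact p = 2.61e-62) and 71.8% of the mirrored class (odds ratio 0.42, 0.36 to 0.49, adjusted exact p = 5.92e-30). ETS letters were found around 262 peaks (22.6%; all intervals 18.7%, coding TSS windows 14.9%), NRF1 letters around 82 (7.08%; 6.34% and 3.90%) and YY1 letters around 111 (9.58%; 8.57% and 9.74%). None of these 3 passed the test against shared or mirrored peaks, with odds ratios from 0.79 (0.62 to 1.02, NRF1 against shared) to 1.27 (0.99 to 1.64, YY1 against mirrored), and all 3 were more frequent than in HepG2-only peaks. Within promoter and other peaks, however, ETS and YY1 letters were more frequent than in the mirrored class by their 95% intervals (Mantel-Haenszel odds ratios 1.23, 1.03 to 1.46, and 1.33, 1.04 to 1.71). These intervals were not adjusted for the number of comparisons.

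Letters of hepatocyte factors were intermediate between shared and HepG2-only peaks, and more frequent than in the mirrored class. This order, with HepG2-only peaks highest, was not particular to them. It also held for AP-1, GATA, RUNX, TEAD, and TCF and LEF letters, while the remaining strings were rarer around HepG2-only peaks. Median window GC differed between the classes too (61.4%, with 66.8% in shared, 56.4% in HepG2-only and 68.4% in mirrored peaks). Its part in this order was not tested. HNF4A letters were found around 78 peaks (6.73%), against 7.41% of all HepG2 high-confidence intervals, 5.17% of coding TSS windows, 4.06% of shared (odds ratio 1.71, 1.30 to 2.24, adjusted exact p = 3.48e-04), 13.2% of HepG2-only and 3.10% of mirrored peaks (odds ratio 2.25, 1.62 to 3.14, adjusted exact p = 4.17e-06). HNF1 letters were around 13 peaks (1.12%; all intervals 1.32%, coding TSS windows 0.806%), compared with 0.211% of shared (adjusted exact p = 1.75e-04) and 0.222% of mirrored peaks (adjusted exact p = 0.00240). C/EBP letters were around 138 (11.9%; all intervals 13.2%, coding TSS windows 13.3%), compared with 8.90% of shared (adjusted exact p = 0.00365) and 7.63% of mirrored peaks (adjusted exact p = 1.03e-04).

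FOXA letters were around 51 peaks (4.40%; all intervals 5.67%, coding TSS windows 4.15%) and passed the test against shared (3.04%, odds ratio 1.47, adjusted exact p = 0.0357) and mirrored peaks (2.66%, odds ratio 1.68, adjusted exact p = 0.0110). Both FOXA calls were lost with intervals of at least 100 bp (odds ratios 1.26 and 1.37, adjusted exact p = 0.279 and 0.239). All 4 hepatocyte strings were rarer than in HepG2-only peaks.

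Letters of some further factors were also more frequent than around shared peaks. AP-1 letters were around 127 peaks (11%; all intervals 11.3%, coding TSS windows 8.82%) against 6.68% of shared peaks (odds ratio 1.72, 1.4 to 2.1, adjusted exact p = 4.37e-06), but were not distinguished from the mirrored class (9.62%, odds ratio 1.2, 0.92 to 1.5, adjusted exact p = 0.243). GATA letters, an element of erythroid genes, were around 40 (3.45%; all intervals 3.41%, coding TSS windows 3.44%) against 1.88% of shared (adjusted exact p = 0.00342) and 2.22% of mirrored peaks (odds ratio 1.58, 1.03 to 2.40, adjusted exact p = 0.0532). The last comparison passed when only intervals of at least 100 bp were kept (odds ratio 1.80, adjusted exact p = 0.0291). RUNX letters passed against shared peaks (60 peaks, 5.18%, against 3.70%; all intervals 5.49%, coding TSS windows 5.51%, adjusted exact p = 0.0316), a call lost within promoter and other peaks (Mantel-Haenszel odds ratio 1.33, 0.98 to 1.82). CREB and ATF letters were rarer than in shared peaks (28 peaks, 2.42%, against 4.78%; all intervals 3.19%, coding TSS windows 2.27%, adjusted exact p = 3.31e-04). TEAD letters were around 48 peaks (4.14%; all intervals 5.56%, coding TSS windows 4.57%), more often than in the mirrored class (2.31%, odds ratio 1.83, 1.23 to 2.73, adjusted exact p = 0.00509) but not past the threshold against shared peaks (3.11%, odds ratio 1.35, 0.97 to 1.88). E-box letters were around 186 peaks (16.0%; all intervals 14.6%, coding TSS windows 10.4%) and TCF and LEF letters around 33 (2.85%; all intervals 4.40%, coding TSS windows 3.78%), and neither passed against shared or mirrored peaks. In all, 9 of 16 strings passed against shared peaks, 7 of them more frequent around the 1159 peaks. All 16 passed against HepG2-only peaks, 7 of them more frequent, although CREB and ATF letters (Mantel-Haenszel odds ratio 1.52, 0.88 to 2.63) and GATA letters (0.80, 0.55 to 1.15) did not within promoter and other peaks. Finally, 7 passed against the mirrored class, 6 of them more frequent.

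**Figure D4:**
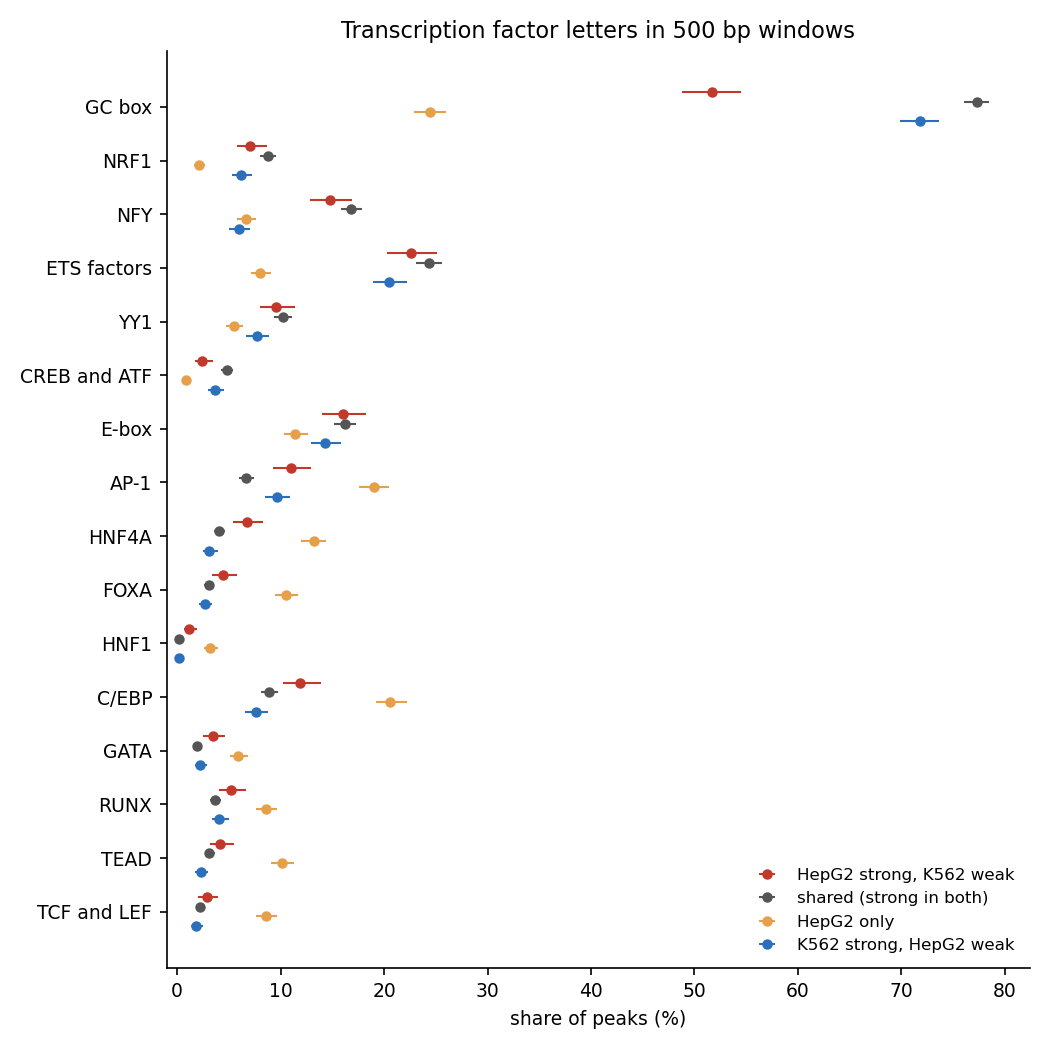
Share of 500 bp windows (%) that hold each of the 16 letter strings on either strand, with 95% Wilson intervals, in the 4 classes of peaks (n = 1159, 4730, 2887 and 2255). NFY letters lie close to the shared peaks at 14.8% against 16.8%, with the mirrored K562 class at 5.94%.

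Of 20149 protein-coding genes, 928 (4.61%) had at least 1 of the peaks in a promoter, and 54 of these had 2 or more. A shared peak lay in a promoter of 153 of the 928 as well (16.5%, against 22.9% of all genes), and 775 had none. The gene lists below were compared with this background by counts alone.

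Cytosolic ribosomal protein genes were the list with the most such genes, 9 of 76 (11.8%), while 32 of the 76 (42.1%, against 22.9% of all genes) had a shared peak. They included RPL3, RPL9, RPL31, RPLP0 and RPLP1 of the large subunit, and RPS9, RPS15A and RPS26 of the small subunit. The peaks were narrow, from 55 bp at RPL9, where the nearest coding TSS is that of LIAS, to 238 bp at RPS15A, and the K562 list covered between 49.4% (RPL3) and 100.0% of them. Only the RPS26 peak held a motif, and 2 of the 9 windows of 500 bp did. NFY letters were in the windows of RPLP0, RPLP1 and RPS9, and ETS letters in those of RPL3 and RPL31, among others.

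Nuclear receptor genes had the highest share, 5 of 37 (13.5%). They were NR0B2, also known as SHP, a corepressor of bile acid signalling, NR1D1 (REV-ERB alpha, a repressor of the circadian clock), NR3C2 (the mineralocorticoid receptor), the orphan receptor NR4A1 and RXRB, a retinoid X receptor. No gene of this list had a HepG2-only peak in a promoter (against 3.67% of all genes), but the list is too short to set 0 apart from that share. A peak of the mirrored class lay at 8 genes (21.6%, against 9.22% of all genes) and a shared peak at 7 (18.9%, against 22.9%). The NR1D1 peak spanned 549 bp at chr17:38256851-38257399, centred 283 bp upstream of the TSS, and its K562 partner was 250 bp and lay wholly within it. The NR0B2 peak, 467 bp at chr1:27240562-27241028, was centred 329 bp upstream, was covered to 34.9% by the K562 interval and held 1 motif. Its window had letters of HNF4A, C/EBP, AP-1 and the E-box, and did not meet the CpG measure. The RXRB peak of 84 bp lay 29 bp upstream of the divergent gene SLC39A7, which encodes a zinc transporter.

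Hepatocyte transcription factor genes were represented by 3 of 26 (11.5%, against 4.61% of all genes). In the same list, 4 genes (15.4%, against 3.67% of all genes) had a HepG2-only peak and 3 (11.5%, against 9.22%) a peak of the mirrored class. Besides NR0B2 the genes were CEBPA, a C/EBP factor of liver and myeloid cells, and CREB3L3. The CEBPA peak of 245 bp (chr19:33793494-33793738) was 78.0% covered by the K562 list. The CREB3L3 window held NFY, HNF4A and RUNX letters and had no motif. Around CEBPA the window had a motif and, of the letter strings, only that of the E-box. HNF4A letters were also in the windows of ACVR2A and SP5, which are genes of other lists. Of 68 liver secreted and metabolic genes, only SCD (1.47%, against 4.61% of all genes) had such a peak. A HepG2-only peak lay at 17 (25%, against 3.67% of all genes), and none had a peak of the mirrored class (against 9.22%).

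Erythroid genes with such a peak were TFRC, the transferrin receptor, and UROD, a heme synthesis enzyme (2 of 32, 6.25%, against 4.61% of all genes). The TFRC peak lay at an annotated start inside the gene, 21157 bp downstream of the nearest coding TSS. None of 24 blood lineage transcription factor genes and none of 39 HOX genes had one, in lists too short to set 0 apart from the 4.61% of all genes. A shared peak lay at 5 (20.8%) and 0 of these, against 22.9% of all genes. The other lists had 1 or 2 genes each: KRT8 and PKP2 (epithelial keratin and desmosome genes, 2 of 36), SP5 of the Wnt list (1 of 38), ACVR2A of the TGF-beta list (1 of 36), NR4A1 of the immediate-early list (1 of 32), FGFR4 and MERTK of the receptor kinase list (2 of 38), and CCNE2 and PLK1 of the cell cycle list (2 of 38). Shares in these lists ran from 2.63% to 5.56%, against 4.61% of all genes. SP5, a Wnt target gene, had 2 of the peaks, of 243 bp and 97 bp. The PKP2 and FGFR4 peaks lay beside a shared peak in the same HepG2 lower-confidence interval.

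**Figure D5:**
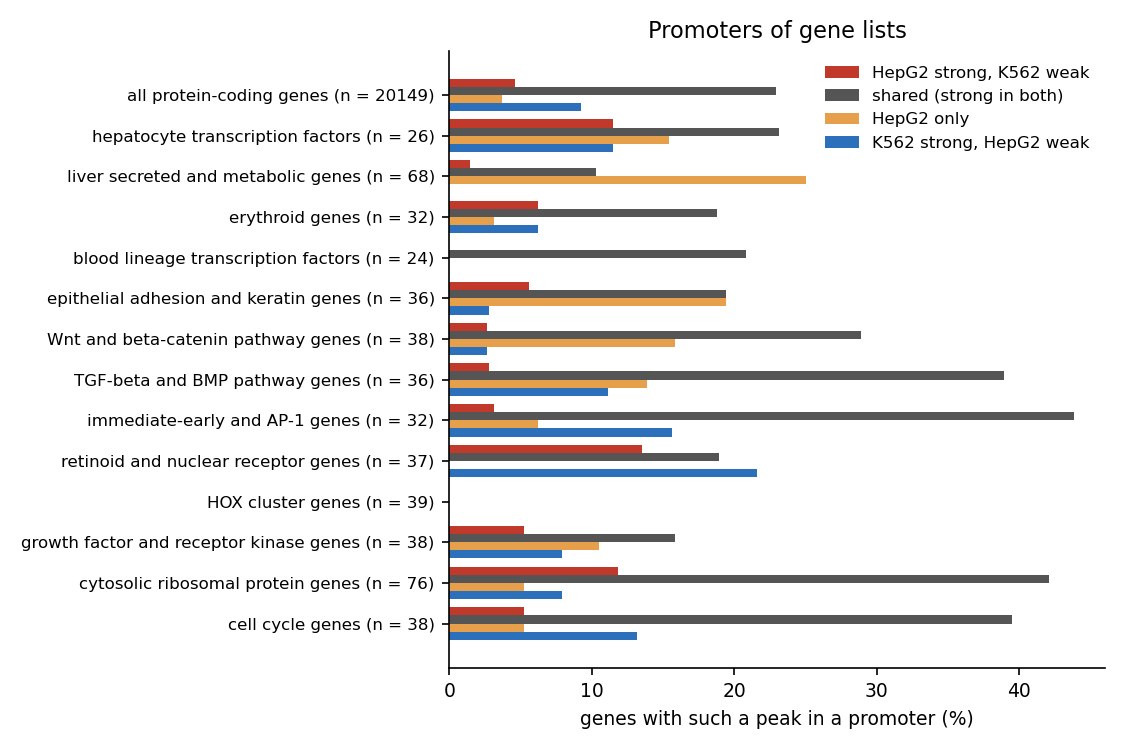
Share of the genes of each list (%) with a peak of each class in the 1 kb upstream of an annotated TSS, with all protein-coding genes at the top and the number of annotated genes in brackets. The HepG2 strong, K562 weak bars reach 13.5% for nuclear receptor genes and 11.8% for ribosomal protein genes, against 4.61% of all genes.

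The widest of the peaks at coding promoters belonged to AGPAT1, an acyltransferase of phospholipid synthesis (561 bp, centred 30 bp upstream of the TSS), then NR1D1, the ubiquitin-conjugating enzyme gene UBE2D3 (541 bp), the tubulin glutamylase gene TTLL5 (536 bp) and GTPBP1 (525 bp). Coverage by the K562 list varied widely among them, from 21.8% at TTLL5 to 92.6% at GTPBP1, which had the widest common stretch of all, 486 bp. The series went on with NR0B2, WDR89 (428 bp), EXOC3L4 (419 bp), the lactate transporter gene SLC16A3 (408 bp) and EIF2AK3, which encodes the stress kinase PERK (408 bp). The next widest common stretches were found at UBE2D3 (405 bp), WBP2 (382 bp) and VWA1 (362 bp), and upstream of a non-coding gene on chromosome 14 (340 bp).

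With centres outside promoters, the widest were in introns at TP53I3 (552 bp), HS1BP3 (549 bp), CARHSP1 (519 bp) and MLXIPL (480 bp), and between genes near UQCRHL (481 bp). MLXIPL encodes ChREBP, a carbohydrate-responsive factor of liver, and its peak was centred 1325 bp downstream of the TSS. The TP53I3 peak ended 2 bp from a K562 high-confidence interval, and its K562 partner held that interval. The peaks with the widest K562 partners were all of this kind. They lay at TMEM80 (1 bp within a partner of 1039 bp), FSTL3 (56 bp within 930 bp), RAB4B (peaks of 274 bp and 64 bp in the same partner of 810 bp) and CNOT3 (97 bp within 803 bp), each in a HepG2 lower-confidence interval with a shared peak.

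Along the genome, the peaks made up between 6.82% of the HepG2 high-confidence intervals on chromosome 21 (6 of 88) and 24.8% on chromosome 13 (27 of 109, 17.6 to 33.6), leaving out chromosome Y with 1 of 3. Chromosome 20 (17.2%), chromosome X (17.1%), chromosome 18 (17.0%) and chromosome 2 (16.4%) followed chromosome 13, and chromosomes 8 (8.0%) and 7 (8.23%) were near the low end. Neighboring peaks are not independent, so no test was made of these shares.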

How the data were processed

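G4 ChIP-seq libraries of K562 and HepG2 were processed by the authors, who used cutadapt for trimming, BWA for alignment (hg19), Picard and samtools against duplicates, MACS2 for peaks of single replicates and bedtools multiinter to join them. The deposited lists give interval positions in bp, with no count, height, signal or q-value, so depth per sample is unknown and replicates could not be compared. Wilson and other 95% intervals cover the counting of peaks only.

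Intervals were compared on GRCh37 with GENCODE release 44 lifted to that build. Overlap needed 1 bp. Two-sided Fisher's exact tests with odds ratios were made for each feature, with p-values adjusted by the Benjamini-Hochberg method over 69 tests (3 comparisons, called under 0.05). The comparisons of position, motif and CpG features with the mirrored class, and the ratios of odds ratios between the lines, were chosen after seeing the data. The regions, gene lists (13 lists, 1 symbol unmatched) and letters were chosen with earlier results of these data known. Named regions are the widest peaks in and outside coding promoters, those with the most motifs, the widest common stretch or the widest K562 partner, and every peak in the promoter of a listed gene. Alternatives were other overlap, width, TSS, motif and window settings, 1 Mb clustering and stratified odds ratios. Functions were tested on simulated data. Python 3.11.15, numpy 2.4.6, scipy 1.17.1, pandas 2.3.3, statsmodels 0.14.6, pysam 0.24.0 and matplotlib 3.10.9 were used.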

Additional observations from a re-analysis of the deposited data

Results flagged for a closer look

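The weak peaks of each line were set against its shared peaks, and the ratio of the HepG2 to the K562 odds ratio was tested for 23 features. In 13 the lines differed at an adjusted p under 0.05. The shared peaks of the lines are largely the same loci, so these ratios are not independent of the direct comparison with the mirrored class, and peaks are not replicates. The ratio was below 1 for the G4 motif in 500 bp (0.401, 95% interval 0.339 to 0.473), the motif within the peak (0.386, 0.312 to 0.478), the GC box (0.430, 0.361 to 0.513), the CpG measure (0.461, 0.370 to 0.574), promoters (0.634, 0.505 to 0.796) and coding TSSs within 1 kb (0.644, 0.524 to 0.791). It was above 1 for NFY letters (2.76, 2.13 to 3.59), HNF4A (2.13, 1.44 to 3.14), C/EBP (1.55, 1.17 to 2.04), TEAD (1.78, 1.12 to 2.82), FOXA (1.71, 1.09 to 2.66), HNF1 (4.84, 1.30 to 18) and introns (1.62, 1.20 to 2.18). For NFY letters the odds ratios of both lines were below 1, at 0.857 in HepG2 and 0.310 in K562. That ratio therefore shows scarcity in the mirrored class and no excess of NFY letters over shared peaks in HepG2.

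On the mitochondrial chromosome, left out above, 21 of 29 HepG2 high-confidence intervals overlapped a K562 lower-confidence interval, and none overlapped a K562 high-confidence one. No control level for that chromosome can be had from interval lists.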

How the results depend on the processing

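No paired analysis was possible because the lists merge replicates and carry no replicate numbers. Of 204 alternative odds ratios for position, motif and CpG features, 202 kept their direction and their side of the threshold and none reversed. The exceptions were the motif within the peak against HepG2-only peaks, compared within promoter and other peaks (1.15), and centres between genes against the mirrored class with intervals of at least 100 bp (1.29). Of 480 for the letters, 441 did so and none of the called ones reversed. The number of peaks was 3580 when the HepG2 lower-confidence list was used and 729 with intervals of at least 100 bp. Their share of the HepG2 list was 11.6% when the K562 interval had to cover at least 50% of the peak, 14.0% when an interval within 100 bp was accepted, 12.2% without peaks whose partner held a K562 high-confidence interval, 12.4% without peaks beside a shared peak, and 10.8% with intervals of at least 100 bp. The numbers of replicates required differ between the lines, and depth, which could not be had from the lists, may limit which intervals reached either list.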
